A study of Mus musculus with 6 samples.

Results

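Mitochondrial ribosomal proteins are the protein components of the ribosome inside mitochondria, and 77 of their genes were followed in neonatal mouse cardiomyocytes with and without added HMGB2, a chromatin protein that bends DNA. The genes were taken by name from the table of raw counts, as symbols that start with Mrpl (large subunit) or Mrps (small subunit) followed by a number and at most 1 letter, with a summed count of at least 60 over the 6 libraries. The pattern matched 78 symbols among 56691 gene rows, and 77 met the minimum, 48 of the large and 29 of the small subunit. Mrpl53, with 42 counts in all (3, 5 and 3 with the vector, 11, 10 and 10 with HMGB2), fell below it, and Mrpl23, with 115 counts, was the least counted gene above it. All 77 passed the filter on low counts and were among the 15429 genes tested.

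The cells were primary cardiomyocytes of neonatal mice, labelled NMCMs. Of the libraries, 3 came from cells given the adenovirus Ad5-cTNT-HMGB2 and 3 from cells given the Ad5-cTNT vector, so that all 6 had received a virus. The cTNT promoter of the virus drives expression in cardiomyocytes, and the other cells of a heart culture are measured together with them. The sources used here do not give the strain and age of the mice, the dose of virus, the time of collection or whether replicates came from separate cultures or animals, and the p-values cover only differences among these libraries, part of which may be technical.

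The ribosome of mitochondria translates the few messages encoded by mitochondrial DNA, all of which are core subunits of the respiratory chain and the ATP synthase. Its ribosomal RNAs are made in the mitochondrion, while every one of its proteins is encoded in the nucleus, translated in the cytosol and imported. Some of these proteins descend from those of bacterial ribosomes and others are found in mitochondria only. The large subunit holds the peptidyl transferase centre and the exit tunnel, and the small subunit binds and decodes the message. The heart is rich in mitochondria and depends on this machinery, whose inherited defects can cause cardiomyopathy.

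Between 12498215 and 16618365 counts per library were assigned to genes. Hmgb2 was at 42.6 ± 5.59 CPM with the vector and 184 ± 10.9 CPM with HMGB2 (SD, n = 3 each), where CPM is the count after scaling every library to the same size, and its groups did not overlap, in the direction of the labels. The cardiomyocyte markers Tnnt2, Tnni3, Myh6 and others summed to 16554 to 17668 CPM with the vector and 27395 to 27655 CPM with HMGB2. Of these markers 8 of 10 were higher (edgeR adjusted p under 0.05). Of all genes tested 14.4% were higher and 10.8% lower by this threshold. Fibroblast markers summed to 4954 to 5028 and 4404 to 4497 CPM (2 of 8 lower), endothelial markers to 2460 to 2494 and 2127 to 2174 CPM (2 of 6 lower), and macrophage markers to 101 to 135 and 77.8 to 89.2 CPM (3 of 7 lower). Smooth muscle and pericyte markers summed to 1245 to 1345 and 1218 to 1332 CPM (1 of 7 higher, 2 lower), and epicardial markers to 139 to 146 and 143 to 149 CPM (0 of 5 past the threshold). Neural markers summed to 13.6 to 16.7 and 9.21 to 12.3 CPM, and erythroid markers to at most 1.10 CPM, with Hba-a2 and Hbb-bt at 0 counts. The cultures thus carried the markers of the labelled cell type together with those of other heart cells. Cardiomyocyte sums were higher with HMGB2, and fibroblast, endothelial, macrophage and neural sums were lower. Smooth muscle and pericyte sums and epicardial sums overlapped between the groups. The part of these differences in the results below was not tested, and in bulk samples fewer cells of a type and less RNA per cell cannot be told apart. Vector 1 and HMGB2 3 lay apart from the other 4 libraries on the second principal component, and the main counts and ratios below are therefore also given without them.

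A share of the promoters of these genes hold the short recognition sequences of NRF1 and of ETS factors such as GABP, regulators of nuclear genes for mitochondria. RefSeq sequences (GRCm38.p6) of 300 bases around the start, 250 before and 50 after it, were found for 68 of the 77 genes and searched on both strands for the NRF1 letters (GCGC and TGCGC with any 1 base between them), the ETS letters ACTTCCGG and the YY1 letters (ATGGC after AAN and before GGC), none of which contains another. A gene counts as holding the letters if any of its windows does (74 windows for 68 genes). The stretches shown are those in which the NRF1 or ETS letters lie just upstream of the annotated start of the gene and outside every annotated exon. Each is written 5′ to 3′ on the strand of its gene, with the letters found in capitals. Mrpl12 lies at chr11:120484526-120484595 on the plus strand, Mrpl45 at chr11:97315566-97315715 (plus), Mrpl43 at chr19:45006443-45006484 (minus), Mrps22 at chr9:98601680-98601720 (minus) and Mrps27 at chr13:99344707-99344774 (plus).
Mrpl12 (NRF1): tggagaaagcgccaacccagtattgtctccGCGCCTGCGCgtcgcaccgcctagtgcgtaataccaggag
Mrpl45 (NRF1): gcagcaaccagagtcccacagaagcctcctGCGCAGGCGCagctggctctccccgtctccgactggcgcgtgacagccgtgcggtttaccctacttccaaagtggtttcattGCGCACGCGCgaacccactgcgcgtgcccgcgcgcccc
Mrpl43 (ETS): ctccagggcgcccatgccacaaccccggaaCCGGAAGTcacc
Mrps22 (ETS): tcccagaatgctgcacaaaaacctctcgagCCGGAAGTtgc
Mrps27 (ETS): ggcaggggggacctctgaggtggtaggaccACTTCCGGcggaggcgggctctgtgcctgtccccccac

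The NRF1 letters were found in 13 of the 68 genes (19.1%), 10 of 42 in the large and 3 of 26 in the small subunit, against 10.7% of all tested genes with a promoter entry and 4.60% of all promoters in the table. The ETS letters were found in 12 (17.6%; 8.46% of tested genes and 3.89% of all promoters) and the YY1 letters in 7 (10.3%; 2.59% and 0.986%). A match is a description of letters and not a binding site. The NRF1 letters lay upstream of the start in 10 of the genes, and their log2 differences between HMGB2 and vector ran from -0.11 to 0.32 with a median of 0.13. None of these 10 was past the threshold with 6 libraries, where 14.4% of all genes were higher. Without vector 1 and HMGB2 3, 4 were higher, against 20.9% of all genes. Of the 58 genes with a promoter entry and no NRF1 letters upstream, 11 and 21 were higher in these fits, with a median of 0.08 with 6 libraries. The difference between these sets was not tested. Of the genes printed, Mrpl12 and Mrpl45 with NRF1 letters had log2 differences of 0.31 and 0.32, the upper end of the 10. The 3 printed with ETS letters were at 0.06 (Mrpl43), -0.12 (Mrps22) and -0.02 (Mrps27). Genes with ETS letters upstream that are not printed ran from -0.26 (Mrps26) to 0.22 (Mrpl18). The genes printed were chosen by where the letters lie, and they do not compare NRF1 with ETS. Of the 11 genes that were higher with HMGB2, 0 held the NRF1 or the ETS letters in this window and 1 held those of YY1.

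The share of members that passed the threshold was close to that of all genes in the upward direction and below it in the downward direction. Each gene was tested with edgeR's quasi-likelihood F-test, and an adjusted p under 0.05 (Benjamini-Hochberg over all genes tested) counted as past the threshold. Of the large subunit genes 8 of 48 (16.7%) were higher with HMGB2, against 14.4% of all genes tested, and 0 were lower. Of the small subunit genes 3 of 29 (10.3%) were higher and 1 (3.45%) was lower, against 10.8% of all genes lower. The median log2 fold change was 0.13 in the large subunit (35 of 48 above 0), 0.02 in the small subunit (17 of 29 above 0) and 0.00 over all genes tested. The median standard error (SE) of a member's log2 fold change was 0.12, so that many of the differences in the plot of the 77 fold changes are no larger than their error.

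**Figure D1:**
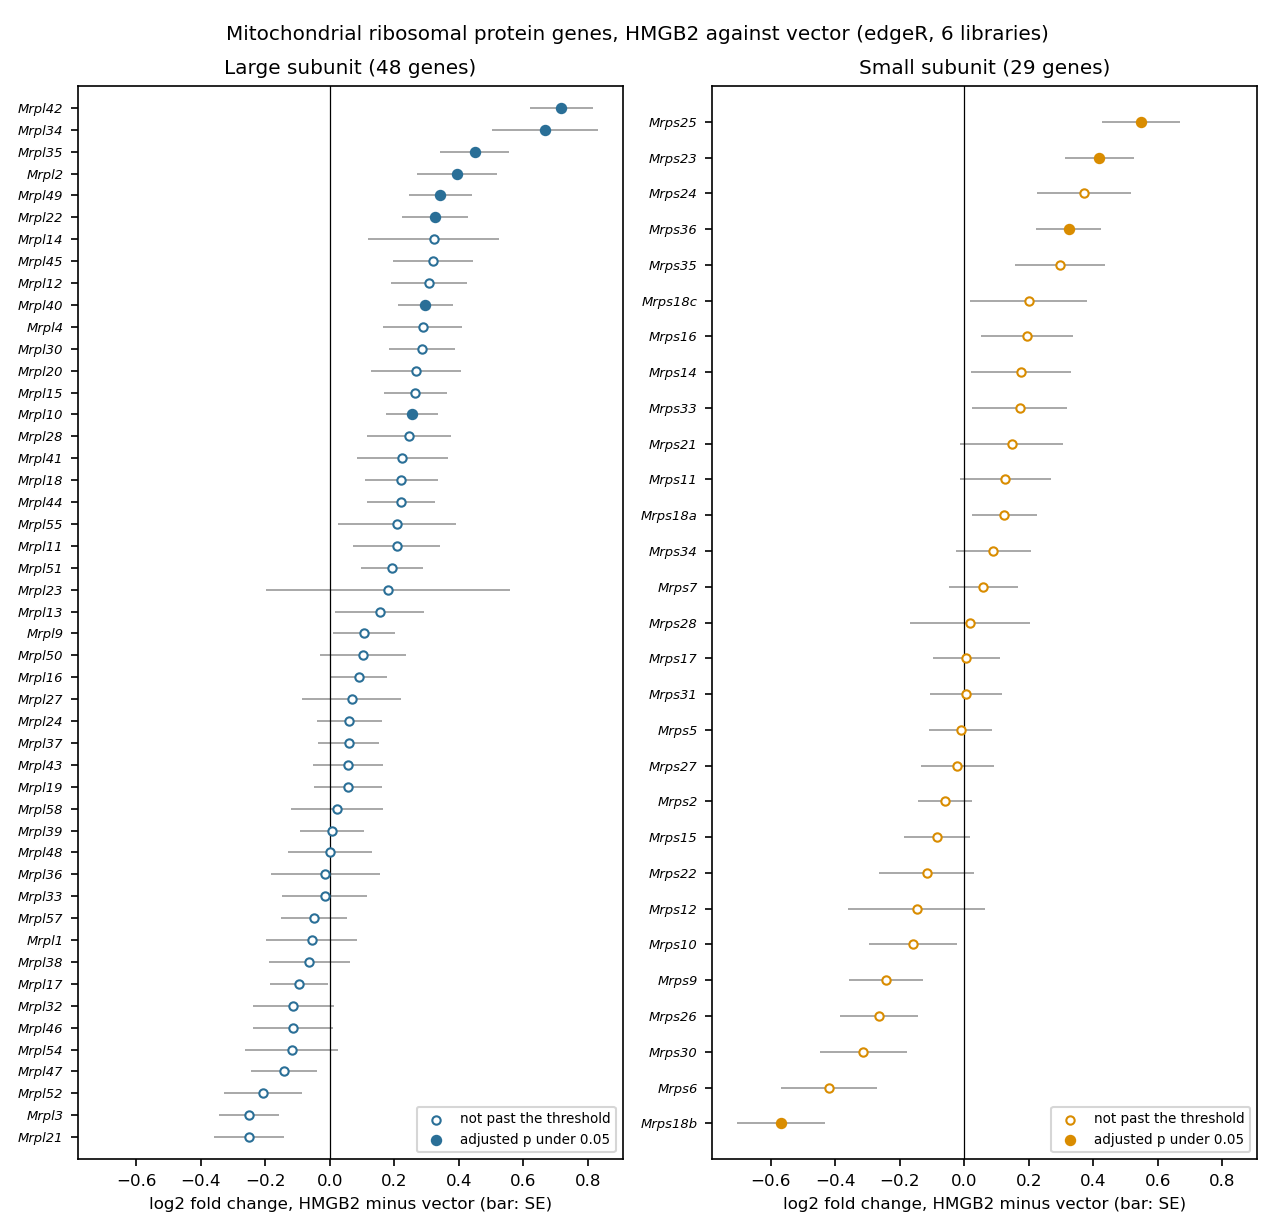
Log2 fold change of each gene (HMGB2 minus vector, x axis) with its SE as the bar, ordered by size, for the 48 large subunit genes (left) and the 29 small subunit genes (right); filled points passed the threshold. The 12 filled points run from Mrps18b at -0.57 to Mrpl42 at 0.72.

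Among the large subunit genes, Mrpl42 differed most. It encodes a protein of the mitochondrial large subunit without a bacterial counterpart, and lies on chromosome 10 at 95480805 to 95501940 (minus strand; GENCODE M21 on GRCm38, as are all gene positions here; ENSMUSG00000062981). Its level was 50.5, 40.6 and 43.4 CPM in vector 1, 2 and 3 and 71.0, 70.8 and 79.2 CPM in HMGB2 1, 2 and 3. The groups were far apart, and the gene was 1.64-fold higher with HMGB2 (log2 0.72, SE 0.10, edgeR adjusted p = 0.000651). The call was kept in each of 15 alternatives, with a log2 fold change between 0.65 and 0.81. A copy elsewhere in the genome, Gm6419, is 96.3% identical over 64.4% of the Mrpl42 transcript and held 2.45% as many counts.

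Mrpl34 and Mrpl35, both short proteins inherited from the bacterial large subunit, came next. Mrpl34 (chromosome 8, 71464959 to 71465747, plus strand) was at 28.3, 18.8 and 17.8 CPM with the vector and 33.4, 31.9 and 37.5 CPM with HMGB2. Vector 1 stood well above vector 2 and 3 but below all HMGB2 libraries. The gene was 1.59-fold higher (log2 0.67, SE 0.16, edgeR adjusted p = 0.0163), a call lost without vector 2 or vector 3 (adjusted p up to 0.0771). Mrpl35 (chromosome 6, 71812997 to 71826969, minus strand) was at 23.8, 23.4 and 21.04 CPM against 28.1, 29.8 and 35.1 CPM. It was 1.36-fold higher (log2 0.45, SE 0.11, edgeR adjusted p = 0.0148), and HMGB2 3 was its highest library. Its call was lost without vector 3 (adjusted p = 0.0628).

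The other 5 large subunit genes past the threshold were 1.19-fold to 1.31-fold higher, and all lost the call without any one of vector 2, vector 3 or the 3 HMGB2 libraries. Mrpl2 and Mrpl22 have bacterial counterparts at the peptidyl transferase centre and along the exit tunnel. Mrpl2 was at 29.9, 22.7 and 22.3 CPM with the vector and 30.8, 32.0 and 35.3 CPM with HMGB2 (log2 0.39, SE 0.12, edgeR adjusted p = 0.0452), and vector 1 lay just below HMGB2 1. Mrpl22 was at 17.2, 14.2 and 16.1 CPM against 20.02, 20.3 and 19.3 CPM (log2 0.33, SE 0.10, edgeR adjusted p = 0.0432). Mrpl10 sits at the base of the stalk that recruits translation factors and anchors Mrpl12 there. Its level was 43.1, 41.8 and 37.6 CPM against 46.9, 49.1 and 50.004 CPM (log2 0.25, SE 0.08, edgeR adjusted p = 0.0477). Mrpl49 and Mrpl40 are specific to mitochondria. Mrpl49 was at 30.1, 25.9 and 24.8 CPM against 32.8, 33.5 and 36.1 CPM (log2 0.34, SE 0.10, edgeR adjusted p = 0.0313). Mrpl40 was at 22.4, 22.3 and 21.9 CPM against 28.8, 25.9 and 27.1 CPM (log2 0.30, SE 0.09, edgeR adjusted p = 0.0327). In these 5 genes the groups did not overlap, and the highest adjusted p of each with 1 library left out lay between 0.116 (Mrpl49) and 0.170 (Mrpl10).

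Of the small subunit genes, Mrps25, Mrps23 and Mrps36 were higher with HMGB2, and none of them descends from a bacterial ribosomal protein. Mrps25 (chromosome 6, 92169525 to 92184033, minus strand) was at 25.3, 25.3 and 22.6 CPM with the vector and 32.6, 32.3 and 42.2 CPM with HMGB2. HMGB2 3 was the highest library and the groups were apart, with a 1.46-fold difference (log2 0.55, SE 0.12, edgeR adjusted p = 0.00966) that stayed past the threshold without any single library. Its exons overlap those of Nr2c2 on the other strand over 69.8% of their length. Nr2c2 held 106% as many counts and had a log2 fold change of -0.02, and reads of the 2 genes cannot be told apart where the counting ignored strand.

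Mrps23 (chromosome 11, 88204388 to 88211507, plus strand) was at 48.5, 41.8 and 37.3 CPM with the vector against 53.9, 54.9 and 61.8 CPM with HMGB2. Its groups did not overlap (log2 0.42, SE 0.11, edgeR adjusted p = 0.0187), and the call was lost without vector 2 or vector 3 (adjusted p up to 0.0738). Mrps36 carries a ribosomal name but its protein is now known as a subunit of the α-ketoglutarate dehydrogenase complex of the citric acid cycle. It was at 16.4, 15.6 and 13.8 CPM against 18.8, 18.8 and 19.8 CPM (log2 0.32, SE 0.10, edgeR adjusted p = 0.0430), a call lost without any one of vector 2, vector 3 or the 3 HMGB2 libraries (adjusted p up to 0.149). Without it, 2 ribosomal proteins of the small subunit were higher.

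Mrps18b was the member that fell. It is 1 of 3 mitochondrial relatives of a single bacterial protein, and lies on chromosome 17 at 35910379 to 35916389 (minus strand, ENSMUSG00000024436). Its level was 20.3, 18.8 and 19.3 CPM with the vector and 14.4, 10.3 and 14.5 CPM with HMGB2. All HMGB2 libraries lay below all vector libraries, and the level was lower with HMGB2 (log2 -0.57, SE 0.14, edgeR adjusted p = 0.0142), a call kept without any single library. Ppp1r10, a regulatory subunit of a protein phosphatase whose start lies 45 bases away on the other strand, was also lower (log2 -0.53, edgeR adjusted p = 0.00549). The copy Gm13552 is 99.8% identical over 38.6% of the Mrps18b transcript, held 141 counts in all and had a log2 fold change of 0.02. The other 2 relatives did not pass the threshold. Mrps18a, whose protein sits in the large subunit, was at 37.1, 31.2 and 33.99 against 34.02, 36.6 and 40.9 CPM (log2 0.12, edgeR adjusted p = 0.415), and Mrps18c was at 27.7, 18.3 and 20.2 against 21.2, 23.5 and 31.2 CPM (log2 0.20, edgeR adjusted p = 0.467). In both, the groups overlapped.

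**Figure D2:**
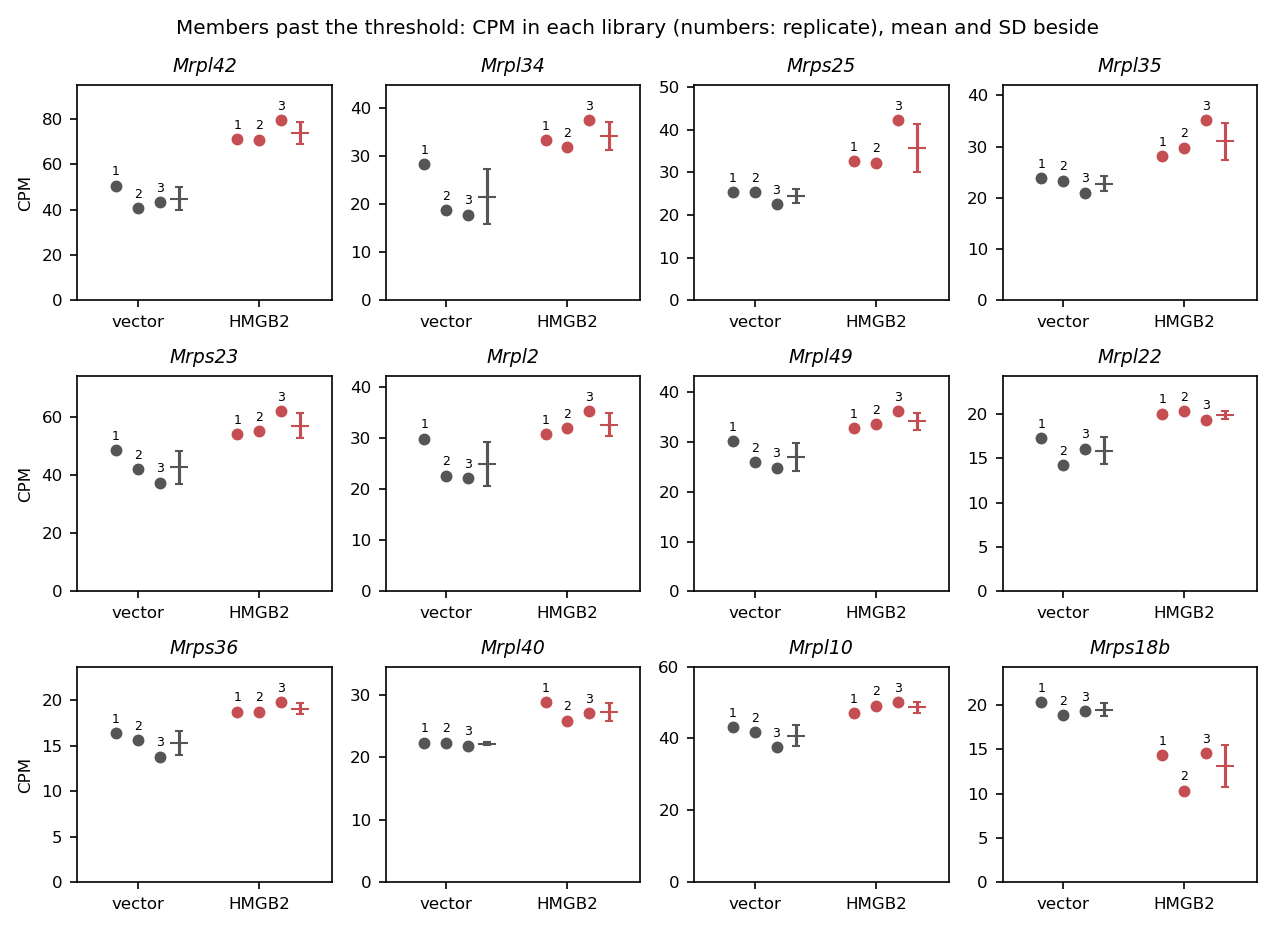
CPM (y axis, from 0) in each vector library (grey) and HMGB2 library (red) for the 12 members past the threshold; digits are replicate numbers and the bar beside each group is the mean with its SD. In each panel the groups do not overlap, and vector 1 is the vector library nearest to HMGB2 in Mrpl34 (28.3 against 31.9 to 37.5 CPM).

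Groups that do not overlap were also counted without the test. All 3 HMGB2 libraries lay above all 3 vector libraries in 10 of 48 large subunit genes (20.8%) and 3 of 29 small subunit genes (10.3%), against 21.6% of all genes. They lay below in 2 large subunit genes (4.17%) and 1 small subunit gene (3.45%), against 18.9% of all genes. Apart from the 12 members past the threshold, these were Mrpl30 and Mrpl15 above and Mrpl3 and Mrpl21 below, named after their values were seen. Mrpl3, a protein next to the peptidyl transferase centre, was at 50.7, 45.6 and 42.7 CPM with the vector and 39.3, 35.9 and 41.5 CPM with HMGB2 (log2 -0.25, edgeR adjusted p = 0.0807). Mrpl21 was at 23.7, 19.4 and 20.4 against 16.8, 17.4 and 18.9 CPM (log2 -0.25, edgeR adjusted p = 0.123).

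Vector 1 and HMGB2 3 held more of these transcripts than the other libraries of their groups. Vector 1 was above the mean of vector 2 and 3 in 75 of the 77 members, with a median deviation of 0.30 on the log2 scale, where the median over all genes was 0.02. HMGB2 3 was above the mean of HMGB2 1 and 2 in 72 of 77, with a median deviation of 0.22, where all genes had 0.01. Both subunits moved in the same way, with median deviations of 0.29 and 0.21 in the large and 0.32 and 0.24 in the small subunit. Gene length was derived from counts and FPKM, and is close to the length of all annotated exons of a gene merged. The members are short by this length (median 2394 nt, against 4063 nt over all genes with a length). Over all genes the deviation of vector 1 and of HMGB2 3 was correlated with it (Spearman's rho -0.45 and -0.42 over 14404 genes, as a description). Among 76 members with a length the rho was -0.25 and -0.34, and these points share libraries and depth. Cytosolic ribosomal proteins and nuclear subunits of the respiratory chain, 2 other families that are short by this length, had median deviations of 0.36 and 0.37 in vector 1 and 0.27 and 0.28 in HMGB2 3. The part of this length in these deviations was not tested.

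**Figure D3:**
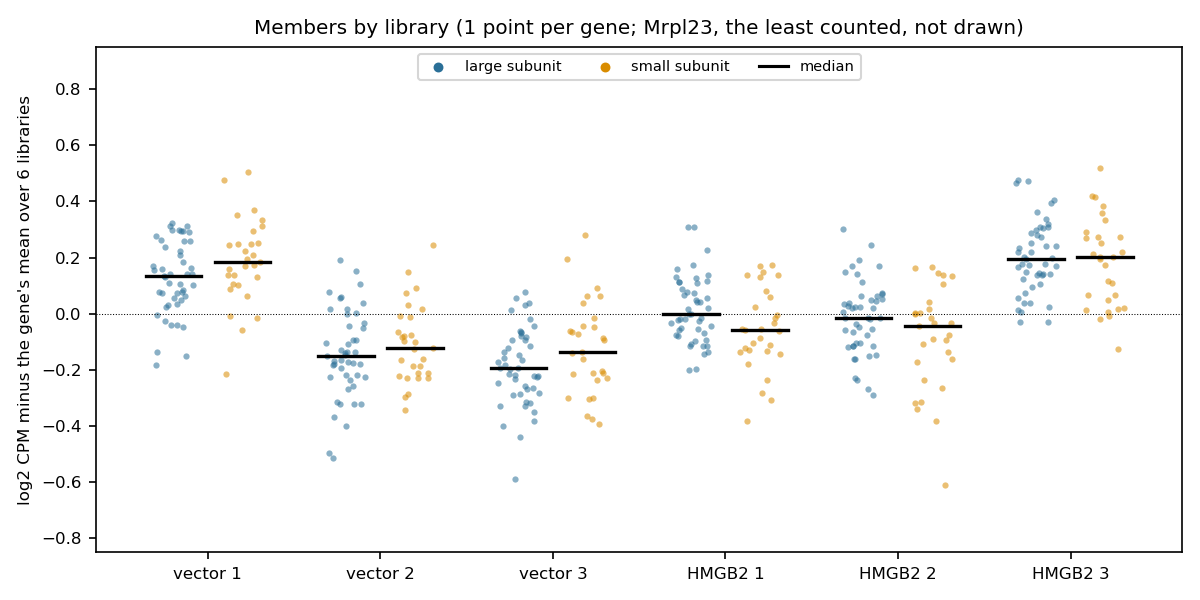
Log2 CPM of each gene minus its own mean over the 6 libraries (y axis), 1 point per gene, for the large subunit (blue) and small subunit (orange) in each library; black lines are medians and Mrpl23, with the fewest counts, is not drawn. The medians of vector 1 and HMGB2 3 lie above 0, and those of vector 2 and vector 3 lie below 0.

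Without vector 1 and HMGB2 3, 22 of the 48 large subunit genes (45.8%) were higher and 1 (2.08%) was lower, and 7 of 29 small subunit genes (24.1%) were higher and 4 (13.8%) lower. Among all genes tested in these 4 libraries 20.9% were higher and 19.1% lower, so the large subunit stood above that share upwards and the small subunit was close to it in both directions. The median log2 fold change was 0.15 in the large and 0.08 in the small subunit. All 12 members called with 6 libraries were called again, in the same direction, and 22 were called only with 4. With 2 libraries a group this fit has few degrees of freedom.

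Of the 15 large subunit genes called only with 4 libraries, 14 were higher and 1, Mrpl3, was lower, and those with the largest changes were Mrpl14, Mrpl12, Mrpl45, Mrpl4 and Mrpl30. Mrpl14, at the face that meets the small subunit, was at 21.8 CPM in vector 1 and at 13.1 and 12.8 CPM in vector 2 and 3, against 19.5, 16.97 and 22.9 CPM with HMGB2. Its log2 fold change was 0.32 with 6 libraries (edgeR adjusted p = 0.291) and 0.50 with 4 (0.00188). Mrpl12, the stalk protein, was at 68.5, 55.2 and 51.3 CPM against 71.0, 65.6 and 79.8 CPM, with 0.31 (adjusted p = 0.0879) and 0.36 (0.000114). In both, vector 1 overlapped the HMGB2 libraries. Mrpl45, at the mouth of the exit tunnel where the ribosome meets the inner membrane, was at 42.5, 35.6 and 30.9 against 41.7, 43.6 and 50.4 CPM, with 0.32 (adjusted p = 0.0932) and 0.36 (0.00127). Mrpl4, which lines the tunnel, went from 0.29 to 0.36 and Mrpl30 from 0.29 to 0.34.

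In the small subunit Mrps24 and Mrps35 were higher with 4 libraries and Mrps6 and Mrps26 lower. Mrps24 was at 23.7, 17.9 and 17.1 CPM with the vector against 24.8, 22.1 and 28.8 CPM with HMGB2, with a log2 fold change of 0.37 with 6 and 0.43 with 4 libraries. Mrps35 was at 20.4, 15.2 and 15.03 against 18.5, 20.8 and 22.7 CPM, with 0.30 and 0.38. Vector 1 was again the library that overlapped HMGB2. Mrps6 was at 44.3, 33.96 and 33.3 against 24.4, 25.5 and 33.3 CPM, with -0.42 and -0.43, and here HMGB2 3 was the overlapping library, level with vector 3. Mrps26 was at 19.0, 18.7 and 17.96 against 13.8, 14.3 and 18.2 CPM, with -0.26 and -0.38. Mrps11 went from 0.13 to 0.31. Mrps30, whose protein is part of the large subunit despite its name, was at 34.2, 24.8 and 30.3 against 24.2, 20.9 and 26.6 CPM, with -0.31 and -0.28. Its groups overlapped, and it was called with 4 libraries (edgeR adjusted p = 0.0402) and not with 6 (0.126).

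**Figure D4:**
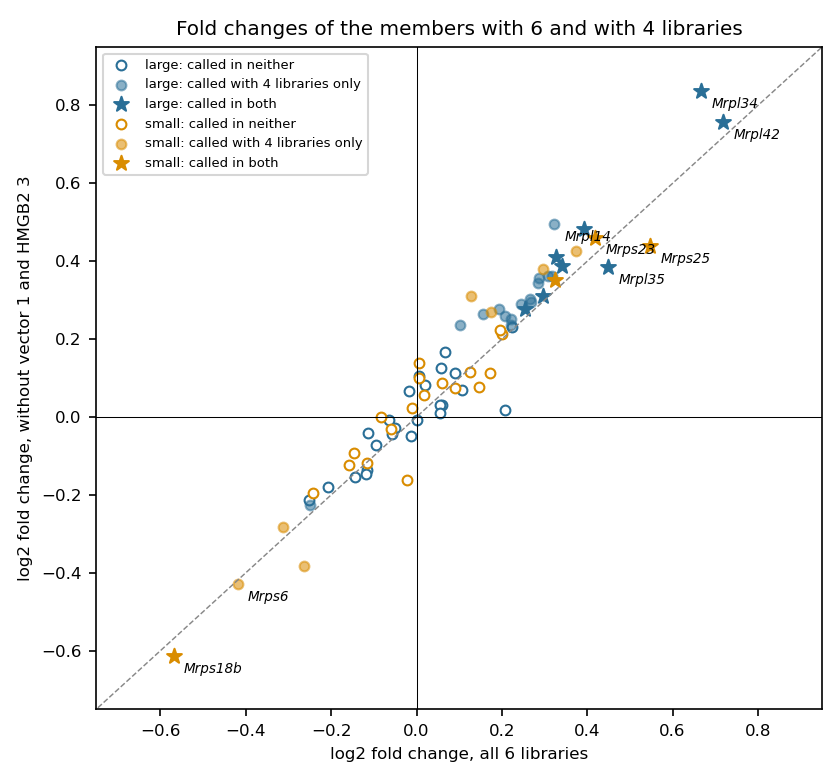
Log2 fold change (HMGB2 minus vector) of each gene with all 6 libraries (x axis) and without vector 1 and HMGB2 3 (y axis), large subunit in blue and small subunit in orange; stars were past the threshold in both fits, filled circles with 4 libraries only, and the dashed line marks equal values. The 12 stars and 22 filled circles lie on the same side of 0 in both fits.

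Summed over its genes, the large subunit was at 1727, 1418 and 1382 CPM in vector 1, 2 and 3 and at 1618, 1588 and 1831 CPM in HMGB2 1, 2 and 3. The small subunit was at 901, 734 and 731 CPM and at 768, 758 and 902 CPM. In both sums the groups overlapped, and vector 1 was above HMGB2 1 and HMGB2 2. The means were 1509 ± 189 and 1679 ± 133 CPM for the large subunit, a ratio of 1.11, and 789 ± 97.3 and 809 ± 80.5 CPM for the small subunit, a ratio of 1.03 (SD, n = 3). Without vector 1 and HMGB2 3 these ratios were 1.14 and 1.04.

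The balance between the subunits varied less between replicates than either sum. The large subunit sum over the small subunit sum was 1.92, 1.93 and 1.89 with the vector and 2.11, 2.10 and 2.03 with HMGB2, and the groups did not overlap. Its mean was 1.91 ± 0.0198 with the vector and 2.08 ± 0.0409 with HMGB2 (SD, n = 3), and 1.91 and 2.10 without vector 1 and HMGB2 3. Grouping by the subunit that holds each protein in the ribosome gave 1.73 ± 0.0124 and 1.87 ± 0.0215. That grouping had 51 large and 30 small subunit genes, against 48 and 29 by symbol. It thus takes in genes outside the symbol rule, and its ratios are not those of the same set. The groups also stayed apart without Mrpl42 (1.86 and 1.99), without the 12 members past the threshold (1.88 and 2.01) and over the 22 large and 13 small subunit genes that have neither an overlapping exon nor a close copy (2.03 and 2.18). These are descriptions of 6 libraries with no test. Sums in CPM weigh long and abundant transcripts most, and the difference of the median log2 fold changes between the subunits was 0.11 with 6 libraries and 0.07 with 4.

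**Figure D5:**
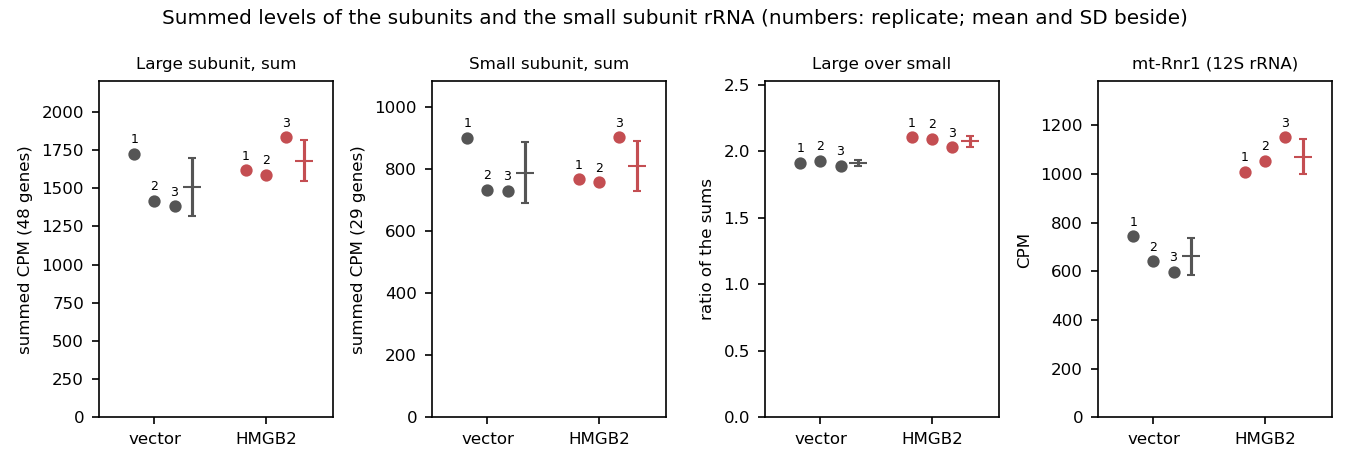
From left to right, the summed CPM of the 48 large subunit genes, the summed CPM of the 29 small subunit genes, the ratio of the 2 sums, and the CPM of mt-Rnr1, the small subunit ribosomal RNA (y axes from 0), in each library with its replicate number and with the mean and SD of each group. The sums overlap between vector and HMGB2, and the ratio and mt-Rnr1 do not.

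Levels between genes were compared in the deposited FPKM, which are scaled by gene length, and genes were ranked by the mean over all 6 libraries. In the large subunit Mrpl34 (35.4 ± 9.71 FPKM with the vector and 56.7 ± 5.25 with HMGB2), Mrpl12 (37.8 ± 6.04 and 47.4 ± 5.08) and Mrpl18 (37.6 ± 5.41 and 44.4 ± 4.91), a protein of the central protuberance, had the highest levels in that mean. These neighbours lie within each other's SD with the vector. Mrpl23 (0.243 ± 0.0902 and 0.283 ± 0.0961), Mrpl48 (2.34 ± 0.321 and 2.37 ± 0.298) and Mrpl47 (4.54 ± 0.396 and 4.16 ± 0.251) had the lowest. The low value of Mrpl23 stands beside Mrpl23-ps1, a copy that is 100% identical over 68.9% of its transcript and held 74.8% as many counts. In the small subunit Mrps21 (43.8 ± 6.83 and 49.1 ± 11.4), Mrps23 (27.1 ± 3.69 and 36.7 ± 3.05) and Mrps7 (24.8 ± 3.14 and 26.2 ± 2.74) were highest, and Mrps10 (1.31 ± 0.107 and 1.19 ± 0.168), Mrps35 (1.94 ± 0.364 and 2.41 ± 0.260) and Mrps26 (4.22 ± 0.135 and 3.56 ± 0.580) lowest. The median member was at 13.4 ± 1.56 FPKM in the large and 8.79 ± 1.10 FPKM in the small subunit with the vector, and at 15.02 ± 1.24 and 9.61 ± 1.42 FPKM with HMGB2 (SD over 3 libraries). In FPKM the members of each subunit thus spread over more than an order of magnitude. These FPKM divide by a length close to that of all annotated exons of a gene merged, 8079 nt for Mrps10 and 739 nt for Mrps21. With the vector these 2 genes were at 10.7 and 32.7 CPM, so part of the spread in FPKM lies in this length. Mrps10 also has a copy, AC154457.3, that is 97.8% identical over 50.1% of its transcript and held 46.3% as many counts. The low end of the large subunit is Mrpl23, with its copy.

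Members with a counterpart among bacterial ribosomal proteins were set beside all other members, Mrps36 and Mrpl58 among them. In the large subunit 5 of 29 with a bacterial counterpart and 3 of 19 others were higher with HMGB2 (17.2% and 15.8%, against 14.4% of all genes), with median log2 fold changes of 0.18 and 0.06. In the small subunit 0 of 18 with a counterpart were higher and 1 (5.56%, against 10.8% of all genes) was lower (median 0.01). Of the 11 others 3 (27.3%) were higher (median 0.09), and 1 of these was Mrps36. Without vector 1 and HMGB2 3, 15 of the 29 and 7 of the 19 large subunit genes were higher, against 20.9% of all genes. In the small subunit 3 of 18 with a counterpart were then higher and 2 lower, and 4 of 11 others were higher and 2 lower. The difference between the 2 classes was not tested. Mrpl58, a large subunit protein that releases stalled peptides, was at 28.3, 21.8 and 19.96 CPM with the vector and 21.9, 22.3 and 26.8 CPM with HMGB2 (log2 0.02).

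Many of the genes lie head to head with a neighbour. A protein-coding gene on the other strand started within 1000 bases of the start in 33 of the 77 (42.9%). Among 13321 tested protein-coding genes the share was 15.3%. Over the 29 pairs with both genes tested, 14 had the same sign of the log2 fold change (Spearman's rho 0.19 across pairs, as a description). Of the neighbours in these pairs 6 were higher and 3 lower, against 14.4% and 10.8% of all genes. Both genes were called in 3 pairs, in the same direction for Mrpl2 with Klc4 (0.39 and 0.56) and Mrps18b with Ppp1r10 (-0.57 and -0.53), and in opposite directions for Mrpl40 with Hira (0.30 and -0.42). One pair joins both subunits, Mrpl46 (-0.12) and Mrps11 (0.13), whose exons overlap, and neither was past the threshold. In 32 members exons overlap another gene, in 27 of them on the other strand, and their counts are uncertain since the sources used here do not say whether counting used the strand.

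Of the 2 ribosomal RNAs around which the proteins assemble, that of the small subunit was past the threshold with 6 libraries. The small subunit RNA mt-Rnr1 was at 745, 640 and 598 CPM with the vector and 1009, 1053 and 1149 CPM with HMGB2, groups that did not overlap, and it was 1.62-fold higher (log2 0.70, SE 0.10, edgeR adjusted p = 0.000713), a call kept without any single library. The large subunit RNA mt-Rnr2 was at 2292, 2294 and 2125 CPM against 2427, 2460 and 2464 CPM (log2 0.13, SE 0.07, edgeR adjusted p = 0.191). Its groups did not overlap either, and it was past the threshold without vector 1 and HMGB2 3 (log2 0.15, edgeR adjusted p = 0.000743). The difference between the 2 RNAs was not tested. Both values are counts left in these libraries, whose preparation was not examined here, and they need not follow the amount of ribosomal RNA in the cells. Of the 5 ribosomal proteins with other symbols, 0 passed the threshold, and Ptcd3 (log2 0.06) and Dap3 (0.01), both of the small subunit, were the most abundant in CPM.

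Among the genes that build and run this ribosome, assembly factors showed 3 of 29 higher (10.3%, against 14.4% of all genes) and 2 lower (6.90%, against 10.8%), with a median log2 of 0.01. Mrm1, which methylates the large subunit RNA, rose by 0.67 on the log2 scale, and Mettl15, a methyltransferase of the small subunit RNA, by 0.67. C1qbp, a matrix protein needed for mitochondrial translation, fell by 0.50, from 99.7 to 70.5 CPM. Translation factors had 5 of 16 higher (31.2%) and 1 lower (6.25%), with a median of 0.14. Taco1, an activator of the translation of a cytochrome oxidase message, went from 11.8 to 21.3 CPM (log2 0.86, edgeR adjusted p = 0.000455), and Oxa1l, which inserts new chains into the inner membrane, and the initiation factor Mtif3 rose by 0.35 and 0.53.

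Aminoacyl-tRNA synthetases and related enzymes of mitochondria had 5 of 20 higher (25%, against 14.4% of all genes) and 1 lower (5%, against 10.8%), with a median of 0.23, and with Gatb at 0.80, Ears2 at 0.63 and Fars2 at 0.65. Of the messages that the ribosome translates, encoded in mitochondrial DNA, 0 of 13 were higher and 3 lower (23.1%; median -0.25), namely mt-Cytb (-0.33), mt-Nd4 (-0.25) and mt-Atp6 (-0.47). Without vector 1 and HMGB2 3, 8 of the 13 were lower (61.5%, against 19.1% of all genes). Factors of mitochondrial DNA transcription and maintenance had 0 of 12 higher and 1 lower (8.33%), the transcription factor Tfb2m, which fell by 0.42. Of 10 regulators of mitochondrial gene expression 3 were higher (30%) and 4 lower (40%), and 3 and 6 without vector 1 and HMGB2 3. The coactivator Ppargc1a went from 13.6 to 30.2 CPM (log2 1.15, edgeR adjusted p = 0.000205) and Ppargc1b rose by 1.28, while Gabpa, the DNA-binding part of GABP, fell by 0.32 and Nrf1 was not past the threshold (log2 -0.10).

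Set beside the 2 nuclear families most like them, mitochondrial ribosomal proteins lay between. Of the cytosolic ribosomal proteins 0 of 84 tested were higher and 18 (21.4%) lower (median log2 -0.31), and of the nuclear respiratory chain subunits 22 of 84 (26.2%) were higher and 0 lower (median 0.25), against 14.4% of all genes higher and 10.8% lower. The median of all 77 members was 0.09, with 11 higher (14.3%) and 1 lower (1.299%). Without vector 1 and HMGB2 3, 58 of 83 cytosolic ribosomal proteins (69.9%) were lower, 65 of 84 respiratory chain subunits (77.4%) were higher, and 29 of the 77 members (37.7%) were higher and 5 (6.49%) lower, against 20.9% of all genes higher and 19.1% lower. The medians were then -0.27, 0.29 and 0.11 in that order. These differences between families were not tested.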

How the data were processed

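RNA sequencing of 3 vector and 3 HMGB2 samples gave 2 tables for the whole series. The first holds raw counts per Ensembl gene as deposited by the authors, and the second holds FPKM, which the authors scaled by gene length and library total. Aligner and counter roles are not stated, but HISAT2 2.2.1 and HTSeq 0.6.1 are listed in the submitters' processing notes, as are StringTie 1.3.3b, FastQC 0.10.1 and the build mm10. Counts were filtered with filterByExpr (minimum count 10, minimum total 15), scaled by TMM and tested with edgeR 4.0.16 in R 4.3.3 by its robust quasi-likelihood F-test of HMGB2 against vector, with no covariate. The SE is the size of the log2 fold change divided by the root of F. CPM use TMM-scaled library sizes over the genes tested. FPKM were used to compare levels between genes and, with limma 3.58.1 and a pseudocount of 0.1, as an alternative, as was DESeq2 1.42.0. The test was also run on simulated counts, with means and spread taken from these data.

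Positions, exon overlaps and copies (BLAST 2.17.0, at least 95% identity over at least 100 nt and 20% of the transcript) came from GENCODE M21 through the Ensembl identifiers, which matched 77 of 77 members. The named members are those past the threshold, the 3 highest and 3 lowest FPKM of each subunit, up to 10 called only without vector 1 and HMGB2 3, Mrps18a to Mrps18c, Mrps30, Mrps36 and Mrpl58. From each pathway list the members with the smallest p were named. Members and lists were chosen with earlier results of these data known. Bacterial counterparts are background knowledge added after the data were seen. Replicates of a group differed by more than sampling noise (lowest chi-square per degree of freedom 2.01), and each was counted as 1 sample.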

Additional observations from a re-analysis of the deposited data

How the results depend on the processing

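The number of large subunit genes higher with HMGB2, 8 with 6 libraries, was 5 with DESeq2, 5 with upper-quartile scaling, 15 with a length trend as an offset, 1 when tested against a fold of 1.2 and 22 without vector 1 and HMGB2 3. With 1 library left out it ran from 1 (without vector 3) to 22 (without vector 1), and it was 2 without vector 2 and 3 without any one HMGB2 library. The number lower, 0, was 1 with the length trend and 1 without vector 1 and HMGB2 3. For the small subunit, the 3 higher became 0 against the fold of 1.2 and 7 without vector 1 and HMGB2 3, and ran from 1 (without vector 2 or vector 3) to 6 (without vector 1). The 1 lower became 2 with DESeq2, 2 with the length trend, 3 with no filter, 0 against the fold of 1.2 and 4 without vector 1 and HMGB2 3, and ran from 1 to 3 (without HMGB2 3). The large minus small difference of median log2 fold changes, 0.113, was 0.0698 without vector 1 and HMGB2 3 and ran from 0.0583 (without HMGB2 2) to 0.125 (without vector 2). The median of the small subunit itself ran from -0.02 (without vector 2) to 0.16 (without vector 1), on both sides of 0. Over all genes, 1303 were higher and 551 lower against the fold of 1.2, 2986 were lower without vector 1 and HMGB2 3, and with 1 library left out the number lower ran from 866 (without HMGB2 1) to 1960 (without vector 1). The cause of these changes was not tested. Same-numbered vector and HMGB2 libraries did not all deviate together (correlations of -0.32, 0.23 and -0.37). The largest correlation, 0.52, was between vector 1 and HMGB2 3. With 3 libraries a group these 2 weigh on every other value, so the check cannot decide whether the numbers pair the samples. With the replicate block, 2 large and 1 small subunit genes were higher, and 1459 genes in all were higher and 754 lower. Over the named members, 390 of the values under these alternatives kept their side of the threshold, 37 passed it newly and 67 lost it, and 0 changed direction among called values. Mrpl23, the least counted member with 115 counts, had the largest SE, 0.38 on the log2 scale.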
